A study of Mus musculus with 9 samples.

Results

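Transcripts of 10 annexin genes (Anxa1, Anxa2, Anxa3, Anxa4, Anxa5, Anxa6, Anxa8, Anxa10, Anxa11 and Anxa13) were followed in mouse intestinal organoids and tumoroids. The genes were chosen by name, as listed members of the annexin family, and no measured value enters that rule, although earlier results of these data were known when the family was picked. They are 10 of the 50600 genes in the deposited tables, and all 10 were among the 16208 genes tested. Each had at least 1 TPM (reads scaled by gene length and library total) in every library, the lowest being 1.03 TPM. Anxa7 and Anxa9 were held apart and are described with the partner genes below.

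The study asked how a medium conditioned by tumour cells changes normal intestinal epithelium, by RNA-sequencing of 9 libraries in 3 groups of 3. Organoids are closed epithelial cultures grown in gel, here from the small intestine of WT mice (strain C57BL/6 in the labels, aged 2 to 5 months in the study's methods). They were kept for 24 hr in an equal mix of fresh medium and medium conditioned by tumoroids (T-cM) or by WT organoids (WT-cM). Tumoroids were the same kind of culture from intestinal tumours of Apc1638N/+ mice (strain given as MIX, aged more than 6 months in the methods) and were untreated. Apc1638N is a germline mutation of one copy of Apc, the brake on Wnt signalling, carried by the whole animal. The tumours were cut from the tissue by hand, and those near the ampulla were left out. The labels give the same growth medium with EGF, Noggin and R-spondin1 for every library, whereas the methods name a medium without R-spondin1 for tumoroids. The methods also describe all mice as of mixed background, against the C57BL/6 label of the organoids. Genotype, tumour origin, any difference in strain, age and medium therefore cannot be told apart in any comparison of tumoroids with organoids.

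For the 6 organoid libraries, the title and the treatment field name opposite media. The groups are named by title, as WT-cM-titled and T-cM-titled organoids, and each direction between them turns round if the treatment field is right. Comparisons of tumoroids with the mean of both organoid groups do not depend on that choice. Each library held between 16541635 and 25170966 counts on genes, so that 3 counts, taken as the least that shows a transcript, stood for 0.103 to 0.204 CPM (counts relative to the normalised size of the library, this floor covering counting error only). Levels between libraries are given in CPM and levels between genes in TPM. "Changed" or "passed" means that edgeR's quasi-likelihood test gave a p under 0.05 after Benjamini-Hochberg adjustment over every tested gene.

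The cultures were epithelial by their marker genes. The summed CPM of 8 intestinal epithelium genes (Epcam, Cdh1, Vil1, Krt8, Krt18, Krt19, Cdx1 and Cdx2) was 9452 to 11750 in organoids and 6527 to 7404 in tumoroids, none of the 8 being at 0. Of the 8, 4 were lower in tumoroids (Vil1, Cdx1, Krt19 and Krt8) and Krt18 was higher (20.8 and 29.6% of all tested genes). In TPM the groups overlapped for Krt8, with 3893 to 4633 in tumoroids and 4193 to 5197 in WT-cM-titled organoids. They also overlapped for Cdx1 (58.9 to 218 TPM and 194 to 275 TPM), but not for Vil1, Krt19 or Krt18. Fibroblast genes summed to at most 2.47 CPM in any library (7 genes, of which Col3a1 and Lum were at 0 in all groups) and endothelial genes to at most 3.85 CPM (4 genes, Kdr at 0 in all groups). Immune cell genes summed to at most 21.6 CPM (6 genes, with Cd3e at 0 counts in every library). Of that sum 20.4 CPM were Csf1r in tumoroid 2, and Csf1r passed as higher in tumoroids (adjusted p = 0.017, overlapping groups), as did the endothelial gene Cdh5 (54 counts in tumoroid 3 and at most 1 elsewhere, adjusted p = 0.036). Squamous and gastric genes differed more between libraries and are given below, the gastric genes beside Anxa10.

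Annexins are cytoplasmic proteins that bind acidic phospholipids of membranes when calcium rises. They take part in membrane repair, vesicle traffic and the linking of membranes to actin, and some act outside the cell. Several work in complexes with small calcium-binding proteins of the S100 family. In normal intestinal epithelium Anxa13 is a family member known for its restriction to the gut, and Anxa2 and Anxa4 are abundant in many epithelia.

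In organoids the highest TPM of the family was that of Anxa13, which has a lipid-anchored protein that works in apical transport. Its mean was 2441 TPM in WT-cM-titled organoids, which ranked it 44 of 16208 tested genes, and 3336 TPM in T-cM-titled organoids, rank 26. Anxa2 followed with 763 and 804 TPM and Anxa4 with 560 and 760 TPM. Anxa10 came next (135 and 143 TPM), then Anxa11 (73.2 and 73.1 TPM), Anxa5 (36.1 and 42.9 TPM), Anxa3 (22.6 and 34.2 TPM) and Anxa1 (13.4 and 16.03 TPM). Anxa8 (3.60 and 5.22 TPM) and Anxa6 (2.51 and 1.97 TPM) were the lowest in both organoid groups. The order of means was the same in both groups. Among WT-cM-titled organoids, only the neighbours Anxa8 and Anxa6 had overlapping ranges over the 3 libraries. Among T-cM-titled organoids, the ranges also overlapped for Anxa2 with Anxa4, Anxa5 with Anxa3, and Anxa3 with Anxa1.

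Tumoroids had another order. Anxa1 had the highest mean, 633 TPM (rank 205 of all tested genes), followed by Anxa13 (590 TPM), Anxa2 (582 TPM) and Anxa4 (465 TPM), and the ranges of these neighbours overlapped. Anxa3 (296 TPM), Anxa8 (282 TPM) and Anxa5 (189 TPM) came below them with overlapping ranges, then Anxa11 (106 TPM) and Anxa6 (97.7 TPM), which also overlapped. Anxa10 was last with 7.46 TPM (rank 10187), and its range did not overlap that of Anxa6.

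**Figure D1:**
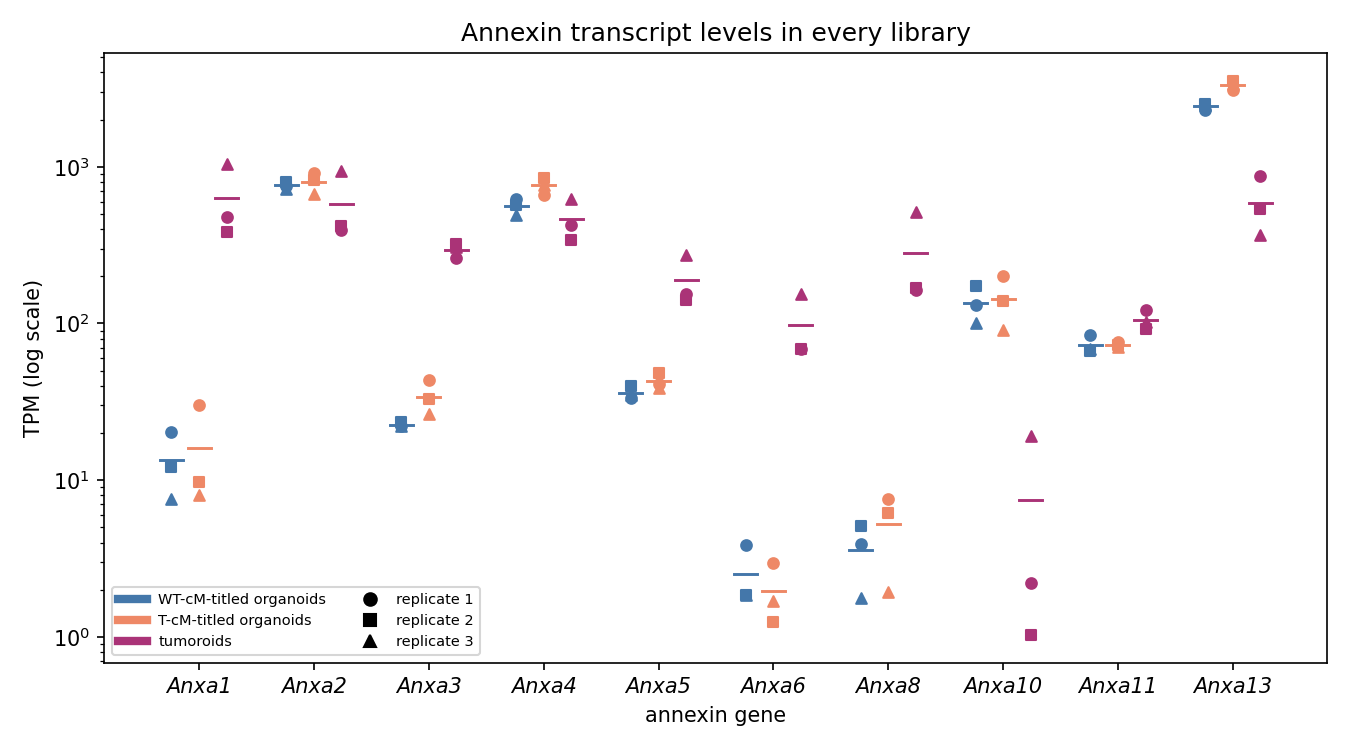
Level of each annexin gene (x axis) in each of the 9 libraries (y axis, TPM on a log scale). Colours stand for the 3 groups, shapes for the replicate numbers and horizontal bars for group means. Anxa1, Anxa3, Anxa5, Anxa6 and Anxa8 lie higher in all 3 tumoroid libraries than in all 6 organoid libraries, as does Anxa11 on this scale by a smaller margin, and Anxa10 and Anxa13 lie lower in all 3.

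The summed level of the 10 genes was 4051 ± 157 TPM in WT-cM-titled organoids, 5217 ± 273 TPM in T-cM-titled organoids and 3250 ± 969 TPM in tumoroids (SD, n = 3 each). The make-up of that sum differed between organoids and tumoroids. Anxa13 made up 60.3% ± 2.46 of it in WT-cM-titled organoids and 63.9% ± 2.94 in T-cM-titled organoids, but 19.9% ± 10.7 in tumoroids. In tumoroids Anxa1 held 18.6% ± 4.60, Anxa3 9.65% ± 3.06 and Anxa8 8.08% ± 3.37 of the sum, where each had been under 1% in every organoid library. Anxa2 (18.8, 15.4 and 17.3% in WT-cM-titled, T-cM-titled and tumoroid libraries) and Anxa4 (13.8, 14.5 and 14.3%) held similar shares of the TPM in all groups. These shares rest on the gene lengths behind the TPM values, which the sources used here do not give. The counts and TPM values together imply a length for Anxa13 of 0.351 times that for Anxa1, and by read counts alone Anxa13 held 26.4, 29.2 and 6.63% of the family in the same 3 groups. By read counts Anxa2 held 33.6, 28.6 and 22.8% and Anxa4 30.6, 33.7 and 23.6%, so that both exceeded Anxa13 in WT-cM-titled organoids and Anxa4 did in T-cM-titled organoids.

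**Figure D2:**
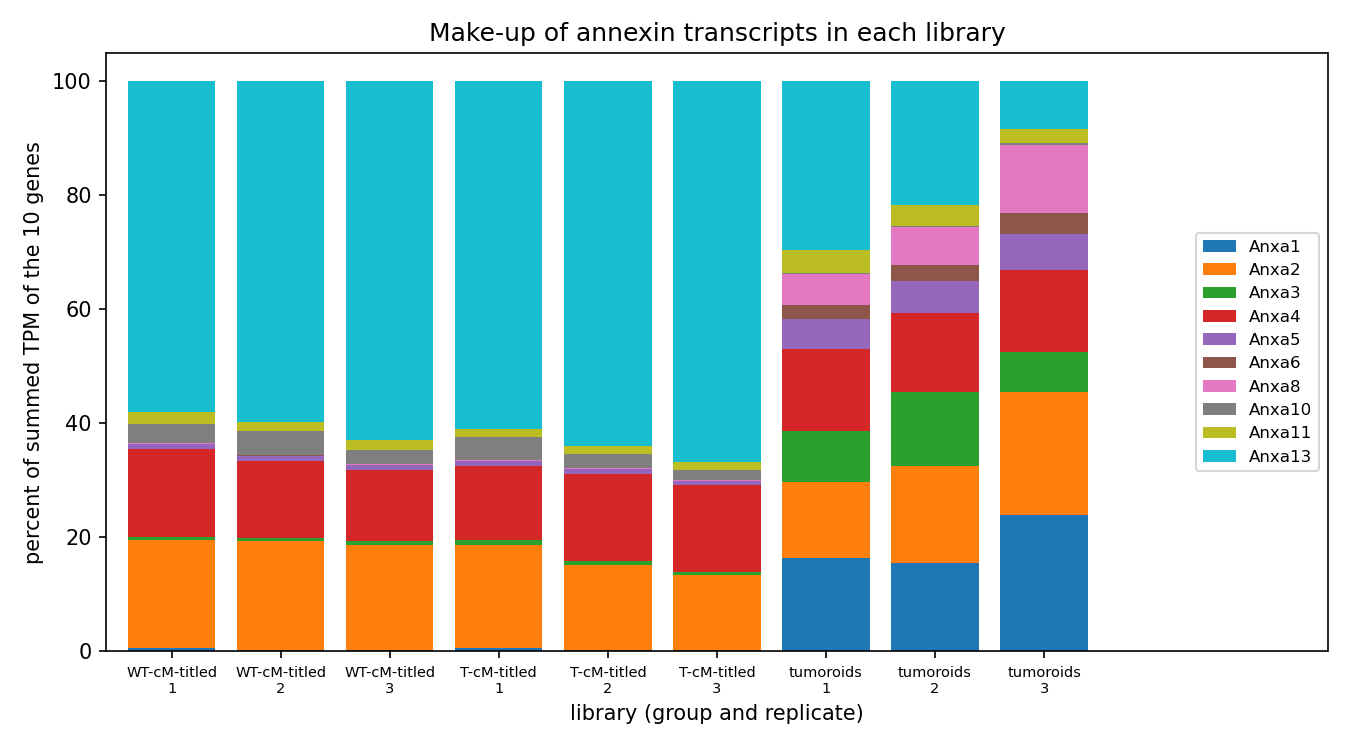
Share of the summed TPM of the 10 annexin genes (y axis, percent) held by each gene in each library (x axis, group and replicate). Anxa13 fills between 58.1 and 66.8% of each organoid bar and between 8.43 and 29.5% of each tumoroid bar, where Anxa1, Anxa3, Anxa5, Anxa6 and Anxa8 become visible.

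The comparison of tumoroids with organoids asked how the epithelium of Apc-mutant tumours differs from normal epithelium. Of the 10 annexins, 5 were higher in tumoroids (Anxa8, Anxa1, Anxa6, Anxa3 and Anxa5), 4 were lower (Anxa10, Anxa13, Anxa4 and Anxa2), and Anxa11 did not pass the test. Of all tested genes, 50.4% changed, 29.6% being higher and 20.8% lower. The change passed 2-fold for 8 of the 10 (the 5 that rose and, of those that fell, Anxa10, Anxa13 and Anxa4), against 33.1% of all tested genes. Anxa4 was at that limit (2.01-fold lower) and fell short of it under several alternatives, its log2 fold change running from -1.28 to -0.53. In CPM the groups did not overlap for 9 of the 10 annexins, against 45.8% of all tested genes. The median log2 fold change was 0.88 over the 10 annexins and 0.16 over all tested genes. In bulk samples such as these, a difference in RNA per cell cannot be told apart from a difference in the number of cells of a type. Against either organoid group alone, the same counts of 5 higher and 4 lower were found.

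Among those that rose, Anxa8 is an annexin known from squamous epithelia. Its 6 organoid libraries held 1.46 to 5.55 CPM (means of 2.76 CPM in WT-cM-titled and 3.92 CPM in T-cM-titled organoids), and tumoroids 1, 2 and 3 held 93.6, 84.6 and 271 CPM. All 3 tumoroids were higher than every organoid library, and the third was well above the others. Its log2 fold change was 5.52 ± 0.49 (SE), 45.8-fold higher, with an adjusted p of 1.9e-05. Anxa8 lies at chr14:34085981-34100571 on the plus strand (GRCm38).

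Anxa1 encodes a glucocorticoid-induced protein that dampens inflammation and is a ligand of formyl peptide receptors. It had 30.7, 10.3 and 8.85 CPM in T-cM-titled organoids 1, 2 and 3, and 20.3, 13.3 and 8.63 CPM in the WT-cM-titled organoids of the same numbers. Tumoroids held 383, 268 and 754 CPM. Every tumoroid library exceeded every organoid library, the T-cM-titled organoid 1 being the highest of the latter. The log2 fold change was 4.94 ± 0.47, with an adjusted p of 2.7e-05. The gene lies at chr19:20373428-20390944 on the minus strand.

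Anxa6 is an annexin of endosomes and the plasma membrane, tied to cholesterol handling. It stood at 1.49 to 4.29 CPM in the 6 organoid libraries and at 61.6, 54.2 and 127 CPM in the tumoroids. The groups were far apart, with a log2 fold change of 4.94 ± 0.35 and an adjusted p of 5.5e-06. It lies at chr11:54979108-55033445 on the minus strand.

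Anxa3 was the steadiest of the annexins that rose. Its tumoroid values were 290, 315 and 312 CPM, so that the third tumoroid did not stand apart, and its organoid values ran from 30.6 to 61.6 CPM. Its log2 fold change was 2.89 ± 0.14 (adjusted p = 1.1e-06). Anxa3 lies at chr5:96793339-96845966 on the plus strand, where a second annotated gene that shares exon sequence (Gm42603) had at most 5 counts in any library.

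Anxa5, whose protein binds phosphatidylserine and is used as a probe of dying cells, rose least. It had 22.6 to 35.1 CPM in organoids and 83.4, 66.8 and 136 CPM in tumoroids, with no overlap. The log2 fold change was 1.74 ± 0.21 (adjusted p = 9.8e-05). Its position is chr3:36448923-36475894 on the minus strand.

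Among those that fell, Anxa10 had the largest change. It encodes an annexin known as a marker of gastric epithelium, whose calcium-binding sites are mostly lost. It had 178, 130 and 86.9 CPM in T-cM-titled organoids, 115, 165 and 100.4 CPM in WT-cM-titled organoids and 1.54, 0.632 and 12.3 CPM in tumoroids. All 3 tumoroids lay below every organoid library, but they differed among themselves, with 34, 17 and 357 counts. The log2 fold change was -4.73 ± 0.86 (26.5-fold lower, adjusted p = 0.0014). Without tumoroid 3 it was -6.93 (adjusted p = 7.3e-06). Anxa10 lies at chr8:62057042-62123150 on the minus strand.

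Anxa13 fell from 1097, 1318 and 1297 CPM in T-cM-titled organoids and 809, 965 and 990 CPM in WT-cM-titled organoids to 243, 132 and 93.4 CPM in tumoroids. The tumoroids did not overlap either organoid group. Vil1, a microvillus gene of the gut, fell in the same libraries, from 1222 to 1631 CPM in organoids to 317, 324 and 306 CPM in tumoroids (-2.15, adjusted p = 7.5e-06), and its part in the value of Anxa13 was not tested. The log2 fold change of Anxa13 was -2.78 ± 0.31 (6.85-fold lower, adjusted p = 6.7e-05). The gene lies at chr15:58341471-58389244 on the minus strand, and the Gencode annotation used here for positions (release 21) classes it as a processed transcript.

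Anxa4 and Anxa2 fell less. Anxa4, a membrane-binding annexin of secretory epithelia, had 1000.4 to 1602 CPM in organoids and 607, 424 and 813 CPM in tumoroids, a log2 fold change of -1.01 ± 0.22 (adjusted p = 0.0037). Anxa2, whose protein pairs with S100a10 and binds plasminogen and its activator at the cell surface, had 1051 to 1322 CPM in organoids. Its tumoroid values were 448, 419 and 974 CPM, below all 6 organoid libraries but with the third close to them. In TPM the groups overlapped for both genes, the third tumoroid having 935 TPM of Anxa2 (671 to 912 TPM in organoids) and 627 TPM of Anxa4 (492 to 849 TPM in organoids). The log2 fold change of Anxa2 was -0.96 ± 0.28 (adjusted p = 0.016). This call was lost without tumoroid 1 (-0.77, adjusted p = 0.062), without tumoroid 2 (-0.75, adjusted p = 0.051) and on the TPM scale (-0.54, adjusted p = 0.098). Anxa4 lies at chr6:86736840-86793584 on the minus strand and Anxa2 at chr9:69453620-69491795 on the plus strand. Annotated genes that overlap their exons, Gm44036 and the antisense Gm16144, held at most 5 and 0 counts.

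Anxa11, an RNA-granule and lysosome binding annexin, had 115 to 133 CPM in organoids and 155, 102 and 118 CPM in tumoroids. These ranges of CPM overlapped, and its log2 fold change was 0.02 ± 0.14 (adjusted p = 0.91), against a median over all genes of 0.16. Its sign turned under other scalings, as with RLE factors (-0.03), so no direction is given. On the TPM scale, where the median over all genes was 0.52, its value was also 0.52 (adjusted p = 0.0069). Anxa11 lies at chr14:25842156-25886804 on the plus strand.

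**Figure D3:**
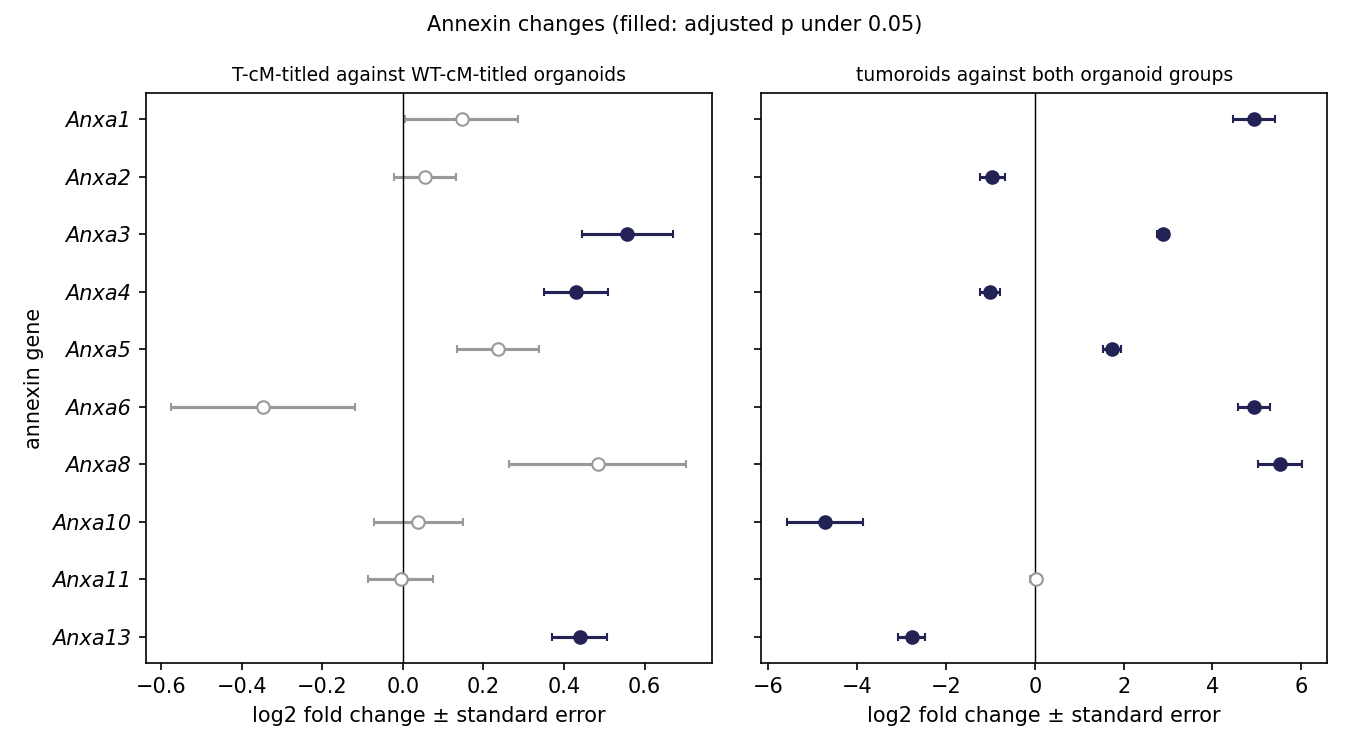
Log2 fold change (x axis) with its standard error for each annexin gene (y axis), between the 2 organoid groups on the left and between tumoroids and the mean of both organoid groups on the right. Filled points passed the test. The 2 x axes differ in range: the left spans under 1 log2 unit in each direction, and the right runs from Anxa10 at -4.73 to Anxa8 at 5.52.

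The third tumoroid had the highest value of the 3 tumoroids for 7 of the 10 annexins and the lowest for Anxa13. Compared with the mean of the others, it had 11.3 times the Anxa10, 3.04 times the Anxa8, 2.32 times the Anxa1, 2.25 times the Anxa2 and 2.19 times the Anxa6, but 1.03 times the Anxa3 and 0.499 times the Anxa13. The same library stood apart in genes of squamous epithelium. The summed CPM of Krt5, Krt14, Krt6a, Krt13 and Trp63 was 0.275 to 1.42 in the 6 organoid libraries and 15.95, 4.50 and 264 in tumoroids 1, 2 and 3. Krt14, a keratin of basal squamous cells, had 14.7, 3.98 and 204 CPM in the tumoroids, and Trp63, the transcription factor that defines such cells, had 0.317, 0.112 and 36.6 CPM. Their part in the annexin values of tumoroid 3 was not tested. Without that library the same counts of 5 annexins higher and 4 lower were found. The log2 fold changes were then 4.40 for Anxa1, 4.75 for Anxa8, 4.44 for Anxa6, 2.86 for Anxa3 and 1.38 for Anxa5, and -1.47 for Anxa2, -1.28 for Anxa4 and -2.53 for Anxa13, with adjusted p-values of at most 8.8e-04.

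**Figure D4:**
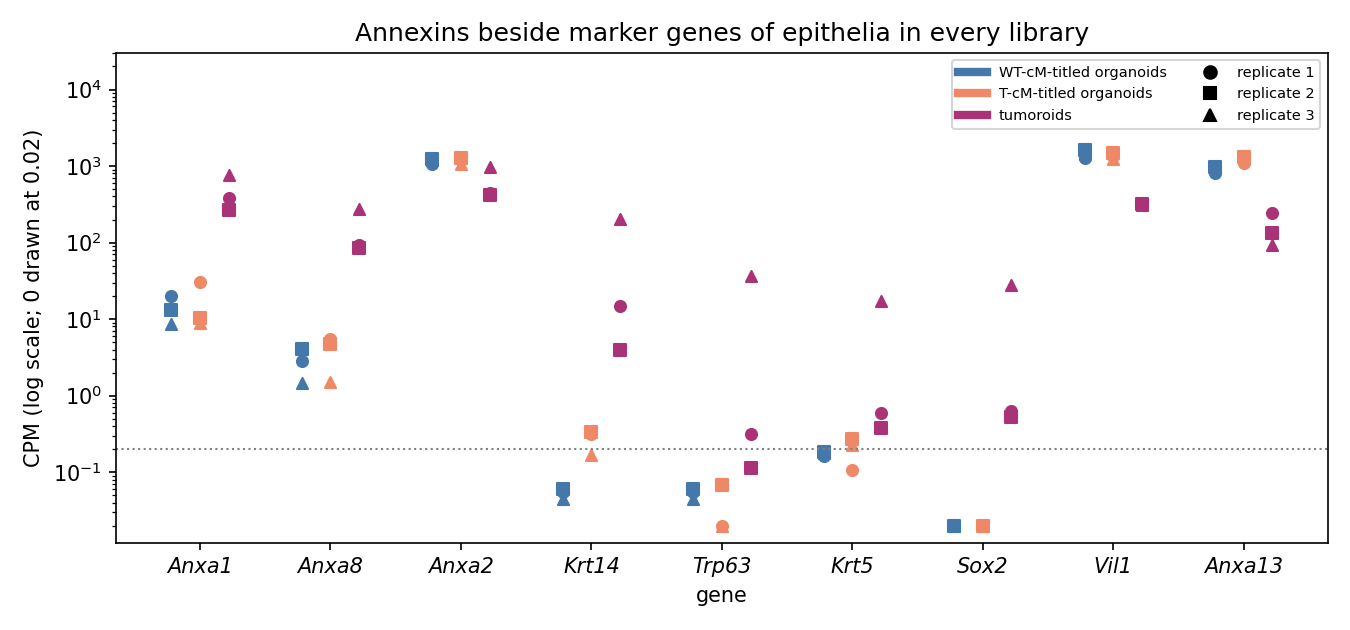
Level of 3 annexins that were high in tumoroid 3, the squamous genes Krt14, Trp63 and Krt5, the foregut factor Sox2, the villus gene Vil1 and Anxa13 (x axis) in each library (y axis, CPM on a log scale, with 0 drawn at 0.02). The dotted line is the level of 3 counts in the shallowest library. Tumoroid 3 (purple triangles) holds 204 CPM of Krt14 against 14.7 and 3.98 CPM in the other tumoroids.

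Since Anxa10 is known as a gastric marker, gastric genes were read beside it. The summed CPM of 11 gastric genes was 4.62 to 15.9 in organoids and 71.4, 69.0 and 231 in tumoroids. Most of the tumoroid sums came from Ctse, the gene of a gastric protease, with 42.6, 49.3 and 190 CPM. In the organoids, where Anxa10 was high, the gastric mucin genes Muc5ac and Muc6 and the factor Sox2 were at 0 counts in all 6 libraries. In tumoroids Muc5ac held 17.6, 1.93 and 9.72 CPM, while Anxa10 was low. Tff1, a gastric trefoil peptide gene, and Cldn18, a gastric tight junction gene, moved the way Anxa10 did, with log2 fold changes of -4.27 (adjusted p = 0.0079) and -3.50 (adjusted p = 0.0024). Of the 10 gastric genes tested, 5 were higher in tumoroids and 2 lower (29.6 and 20.8% of all tested genes). Wnt targets (Axin2, Nkd1, Notum, Lgr5, Sp5 and Ascl2) were all 6 higher in tumoroids, their sum being 34.3 to 74.9 CPM in organoids and 518 to 619 CPM in tumoroids.

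The sequence before the start of a gene can be read beside its change. RefSeq start sites on GRCm38.p6 were found for 7 of the 10 genes (8 promoters, since Anxa4 has a pair of them), with no entry for Anxa3, Anxa6 and Anxa13. The window from 250 bases before to 50 bases after the start was searched on both strands for GGAATG (bound by TEAD factors), TGANTCA (bound by AP-1, where N is any base) and CTTTGAT (bound by TCF and LEF factors). The TEAD letters were present in 14.7% of 32851 promoters, and among the annexins in that of Anxa1 alone, at position -236 from the RefSeq start. That match lies within the longer Anxa1 gene of the Gencode annotation, which ends at 20390944 on chromosome 19. AP-1 letters were present in 7.81% of promoters, and here in Anxa2 (position -95) and Anxa10 (positions -180 and -16). TCF/LEF letters, in 3.73% of promoters, were in none of the 8. These are matches of letters and not shown binding sites. The 250 bases before the start of the annexin that fell most (Anxa10, chr8:62123194-62123443, minus strand) and of the one that rose most (Anxa8, chr14:34085729-34085978, plus strand) are shown because they went opposite ways. AP-1 letters are in capitals, and Anxa8 has none of the motifs.
Anxa10: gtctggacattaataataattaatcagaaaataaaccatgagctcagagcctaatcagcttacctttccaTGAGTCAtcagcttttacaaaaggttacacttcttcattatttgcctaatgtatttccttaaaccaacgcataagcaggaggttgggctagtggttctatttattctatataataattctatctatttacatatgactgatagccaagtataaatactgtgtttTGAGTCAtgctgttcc
Anxa8: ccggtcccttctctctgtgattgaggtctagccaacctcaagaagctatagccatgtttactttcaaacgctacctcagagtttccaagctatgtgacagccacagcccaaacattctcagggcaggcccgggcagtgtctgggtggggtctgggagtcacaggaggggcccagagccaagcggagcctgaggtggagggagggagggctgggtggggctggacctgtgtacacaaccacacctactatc

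The comparison between the organoid groups set 24 hr in medium from tumour cells against 24 hr in medium from WT organoids. By the study's methods, tumoroid medium lacked R-spondin1 and was conditioned for as long as the other or longer. These differences between the media cannot be told apart from what the tumour cells released. Anxa13, Anxa4 and Anxa3 were modestly higher in T-cM-titled organoids, and none of the 10 annexins was lower. The 3 higher of 10 stand beside 5.03% of all tested genes, and the 0 lower beside 5.05% (10.1% changed in either direction). None passed a 2-fold change, which 1.10% of all genes did. The groups did not overlap for these 3 annexins, against 10.4% of all genes, and 6 of the 10 moved in 1 direction in all 3 pairs, against 41.2% of all genes. The median log2 fold change was 0.19 over the 10 annexins and 0.00 over all genes.

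Anxa13 differed by nearly the same amount in each pair of same-numbered libraries, with 1097 against 809 CPM, 1318 against 965 CPM and 1297 against 990 CPM. The log2 ratios of the 3 pairs were 0.44, 0.45 and 0.39. The fitted log2 fold change was 0.44 ± 0.07, 1.36-fold higher (adjusted p = 6.3e-05). In tumoroids the same gene was lower than in either organoid group.

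Anxa4 had 1199, 1602 and 1496 CPM in T-cM-titled organoids 1, 2 and 3 and 1095, 1103 and 1000.4 CPM in WT-cM-titled organoids. The difference was small in the first pair and larger in the others, with log2 ratios of 0.13, 0.54 and 0.58. Its log2 fold change was 0.43 ± 0.08 (adjusted p = 5.1e-04). Anxa3 went the other way across pairs, with 61.6, 48.5 and 40.2 CPM against 30.6, 35.8 and 35.3 CPM, and log2 ratios of 1.01, 0.44 and 0.19. Its log2 fold change was 0.56 ± 0.11 (adjusted p = 0.0012), and it was not called by limma voom (0.56, adjusted p = 0.061). Of these 3, Anxa3 was also higher in tumoroids, whereas Anxa4 and Anxa13 were lower there. The comparisons share the organoid libraries.

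The other 7 annexins did not pass the test. Anxa8 had 5.55, 4.68 and 1.52 CPM against 2.80, 4.01 and 1.46 CPM, a log2 fold change of 0.48 ± 0.22 (adjusted p = 0.19), and Anxa5 had 28.6, 35.1 and 28.9 CPM against 22.6, 29.4 and 27.3 CPM, a log2 fold change of 0.24 ± 0.10 (adjusted p = 0.16). Both were on the higher side in 3 of 3 pairs, with overlapping groups. Anxa6 was on the lower side in 3 of 3 pairs, with a log2 fold change of -0.35 ± 0.23 (adjusted p = 0.41), on 22 to 78 counts a library. Anxa1 had log2 ratios of 0.59, -0.36 and 0.04 in the 3 pairs and Anxa10 of 0.62, -0.34 and -0.21, so that the first pair went against the second for both. Their fitted log2 fold changes were 0.15 ± 0.14 (adjusted p = 0.62) and 0.04 ± 0.11 (adjusted p = 0.91). Without pair 1 Anxa10 was called lower, at -0.27 (adjusted p = 0.028). Anxa2 stood at 0.05 ± 0.08 (adjusted p = 0.75) and Anxa11 at -0.0049 ± 0.08 (adjusted p = 1).

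**Figure D5:**
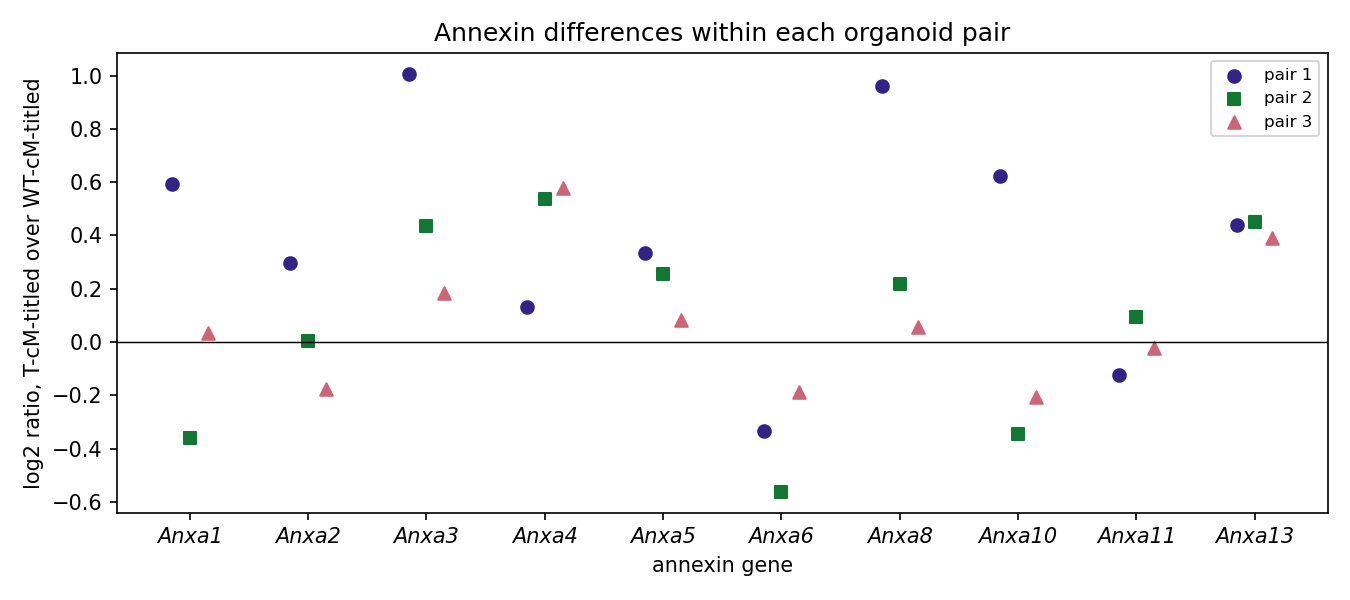
Log2 ratio of CPM of each T-cM-titled organoid library over its same-numbered WT-cM-titled library (y axis) for each annexin gene (x axis), with 1 symbol for each of the 3 pairs. The 3 points of Anxa13 lie together at 0.39 to 0.45, while those of Anxa1 lie between -0.36 and 0.59.

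These calls rest on the pairing of libraries by number and on the second pair. Without the replicate block no annexin passed, with a log2 fold change of 0.44 for Anxa13 (adjusted p = 0.82), 0.44 for Anxa4 (adjusted p = 0.82) and 0.57 for Anxa3 (adjusted p = 0.82), and no gene of all those tested was called (904 at an unadjusted p under 0.05). Without pair 2 again no annexin passed (0.42 for Anxa13, adjusted p = 0.24, 0.36 for Anxa4, adjusted p = 0.43, and 0.60 for Anxa3, adjusted p = 0.42), and 1 gene in all was called. Without pair 3 Anxa4 was lost (0.34, adjusted p = 0.056). On TPM with limma, too, no annexin passed (0.45 for Anxa13, adjusted p = 0.28, 0.44 for Anxa4, adjusted p = 0.30, and 0.55 for Anxa3, adjusted p = 0.30).

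Genes that work with annexins were taken from lists of partners. The S100 proteins S100a10, S100a11 and S100a6, which pair with annexins, were higher in T-cM-titled organoids, 3 of the 4 genes on the list (5.03% of all tested genes), S100a4 having at most 1 count in any organoid library. S100a10, the partner of Anxa2, had 334, 358 and 325 CPM against 254, 308 and 277 CPM (log2 fold change 0.29, adjusted p = 0.0094) and fell to 185, 176 and 164 CPM in tumoroids (-0.82, adjusted p = 4.1e-04). In TPM the groups overlapped for S100a10 (means of 508 in tumoroids, 560 in WT-cM-titled and 692 in T-cM-titled organoids). S100a11, a partner of Anxa1, had 164, 127 and 103 CPM against 113, 99.2 and 77.0 CPM (0.45, adjusted p = 3.0e-04, overlapping groups). It had 492, 287 and 807 CPM in tumoroids (2.23, adjusted p = 1.5e-04). Its highest tumoroid was the third, as for Anxa1. S100a6 had the largest difference of the partners that passed between the organoid groups, with 720, 788 and 609 CPM against 379, 395 and 235 CPM (1.11, adjusted p = 2.6e-10). In tumoroids it had 857, 693 and 922 CPM (0.76, adjusted p = 0.0085), overlapping the organoids. There 2 of the 4 S100 genes were higher and 1 lower (29.6 and 20.8% of all tested genes).

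Of the 10 genes for membrane repair and annexin binding, 9 were tested. Between the organoid groups 3 were higher and none lower (5.03 and 5.05% of all tested genes), namely Myof, a ferlin that acts in membrane fusion (0.76, adjusted p = 1.3e-04), Ahnak, a scaffold bound by the Anxa2 complex (0.28, adjusted p = 0.024), and Capn2, a calcium-dependent protease (0.35, adjusted p = 0.049). The groups overlapped for Ahnak, with 98.0 to 133 CPM in T-cM-titled and 75.7 to 118 CPM in WT-cM-titled organoids. They overlapped also for Capn2, whose log2 ratios were 0.82, 0.01 and 0.17 in pairs 1, 2 and 3. In tumoroids 4 were higher and 4 lower (29.6 and 20.8% of all tested genes). Myof had 148, 280 and 611 CPM in tumoroids and 7.62 to 19.1 CPM in organoids (4.82, adjusted p = 8.9e-06). Cav1, the coat protein of caveolae, had 0 counts in all 6 organoid libraries and 421, 160 and 852 counts in tumoroids (adjusted p = 2.0e-04). Ahnak (2.12) and Capn2 (1.72) were the others that rose. Those that fell were Trim72, a membrane repair protein (-3.93), Capn1 (-1.23), Pdcd6 (-0.49) and Pef1 (-0.32). The last falls depend on the scaling. In TPM, Pef1 was higher in all 3 tumoroids (126 to 140 TPM) than in the organoids (107 to 121 TPM), and Pdcd6 had a mean of 321 TPM in tumoroids against 306 and 313 TPM in the organoid groups. The median log2 fold change of the 9 was -0.32.

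The formyl peptide receptors Fpr1, Fpr2 and Fpr3, through which secreted Anxa1 acts, had 0 counts in every library of every group. With totals above 16541635 counts, 0 allows at most 0.204 CPM. Pla2g4a, a phospholipase A2 gene, was higher in tumoroids (2.21, adjusted p = 0.014), with overlapping groups.

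Of the 6 cell surface plasmin genes, which include those whose products meet on the Anxa2 complex, 5 were tested. Plaur, the urokinase receptor, had 26.6, 33.6 and 26.3 CPM in T-cM-titled and 16.4, 18.1 and 16.7 CPM in WT-cM-titled organoids (0.76, adjusted p = 1.5e-05). It was the only one of the 5 that passed there, beside 5.03% of all tested genes higher and 5.05% lower. In tumoroids Plat, the tissue activator, had 19.8, 201 and 81.1 CPM against 4.78 to 12.1 CPM in organoids (3.67, adjusted p = 4.0e-04). Plau, the urokinase, had at most 2 counts in any organoid library and 158, 60 and 1480 counts in tumoroids (adjusted p = 1.4e-04), and was highest in the third tumoroid. Plgrkt, a plasminogen receptor, fell (-1.06, adjusted p = 0.0021), and Plaur did not pass in tumoroids (0.46, adjusted p = 0.17).

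Of the 6 genes for the exposure of phosphatidylserine, the lipid that Anxa5 binds, none passed between the organoid groups, where 10.1% of all tested genes did. Tumoroids had 1 of the 6 higher and 2 lower (29.6 and 20.8% of all tested genes). In tumoroids Plscr3, a scramblase family gene, was higher (2.58, adjusted p = 1.2e-06), and Ano6, a calcium-activated scramblase, had 83.3, 133 and 96.7 CPM against 470 to 652 CPM in organoids (-2.37, adjusted p = 1.3e-05). Plscr1 was lower on normalised counts (-0.49, adjusted p = 0.030), with overlapping groups, but not in TPM (means of 142 in tumoroids, 134 in WT-cM-titled and 143 in T-cM-titled organoids). Of the remaining family members, Anxa9 was higher in tumoroids (1.20, adjusted p = 0.0091) at no more than 3.68 CPM, and Anxa7 passed in neither comparison (0.20, adjusted p = 0.092 between organoid groups, and 0.24, adjusted p = 0.29 in tumoroids).

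Across the 5 partner lists together, of 25 genes tested, T-cM-titled organoids had 7 higher and 0 lower (5.03 and 5.05% of all tested genes). Tumoroids had 11 of the 25 higher and 8 lower (29.6 and 20.8% of all tested genes). As with the annexins, no partner gene passed as higher without the replicate block or without pair 2, 4 did without pair 3, and 5 did by limma voom, DESeq2 or edgeR's newer form.

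The genes with a pattern most like each annexin were found by the root-mean-square distance between centred log2 CPM values over the 9 libraries, among 12630 genes with a mean of at least 1 CPM. Anxa1 lay nearest to Rgma (0.30 log2 units), Cdo1 (0.37) and Anxa6 (0.37), its own spread being 2.42. Anxa8 lay nearest to Rgma (0.36), Tspan2 (0.38) and Cav2 (0.42), with a spread of its own of 2.65, and Anxa6 to Cdo1 (0.21), Ptk7 (0.24) and 9530053A07Rik (0.24). Anxa13 lay nearest to Acp5 (0.17) and Ctss (0.20), and Anxa10 only to genes at a greater distance, namely Cbr3 (0.42), Papss2 (0.45) and Otop3 (0.46). For Anxa3 the nearest was Slc35e4 (0.11), for Anxa5 Sh2d3c (0.18), for Anxa2 Birc3 (0.09) and for Anxa4 Kcnk6 (0.10). Within the family, Anxa1 and Anxa6 were nearest to each other (0.37) and so were Anxa2 and Anxa4 (0.28), while the annexin nearest to Anxa10 was Anxa13, at 1.83 log2 units. Anxa11, with a spread of only 0.15, lay nearest to Pdcd2l (0.08).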

How the data were processed

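RNA was sequenced as polyadenylated, stranded, paired-end libraries. The authors aligned reads to mm10 with STAR and deposited raw counts per gene and TPM. The counting tool, its strand setting and the gene lengths behind the deposited TPM are not given in the sources used here, so reads from a gene and an antisense partner may not be separated. Groups and replicate numbers came from titles.

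Raw counts of genes with at least 1 TPM in at least 1 library were normalised by TMM and tested in R 4.3.3 with edgeR 4.0.16 (quasi-likelihood F test, legacy form, Benjamini-Hochberg over all tested genes). The organoid groups were compared over 6 libraries, the replicate number being fitted as a block to follow the study's sample effect. Same-numbered organoid libraries deviated together (r = 0.55, 0.34 and 0.55). Tumoroids were compared with the mean of both organoid groups over 9 libraries with no block. SE is the absolute log2 fold change over the square root of F. The study's methods used limma voom, which was kept as an alternative (limma 3.58.1), beside DESeq2 1.42.0, edgeR's newer form, RLE or upper-quartile factors, other filters, limma on log2(TPM + 1), the block left out or added, each library or pair left out, each organoid group alone and the treatment field as label. The fits were tested on simulated data.

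The members and lists were chosen with earlier results of these data known, and no set was tested. All 10 members, any gene of the partner lists, markers of other cell types and the 3 genes nearest to each member could be named. The planned comparison of member proteins was not analysed here. Some list genes are not reported here by name, although the list counts include them. The study's methods state that the replicates came from different mice. Positions are from Gencode release 21 and promoters from RefSeq (GRCm38.p6).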

Additional observations from a re-analysis of the deposited data

How the results depend on the processing

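Between the organoid groups, 1634 genes changed in all. The count was 577 by limma voom, 783 by DESeq2 and 1048 in edgeR's newer form, 0 on TPM with limma (2690 at an unadjusted p under 0.05), 0 with no replicate block (904 unadjusted, 3568 with it) and 1 to 2872 with a pair left out (2872 without pair 1, 1 without pair 2, 533 without pair 3). Of the annexins, 3 were higher and 0 lower. By limma voom 2 were higher, Anxa3 being lost (0.56, adjusted p = 0.061). On TPM or with no replicate block 0 were higher (4 and 3 at an unadjusted p under 0.05), with a pair left out 0 to 3 were higher and 0 to 1 lower, and under the treatment field 0 were higher and 3 lower. Of the partner genes, 7 were higher and 0 lower; 0 were higher on TPM or with no replicate block, 0 to 5 higher and 0 to 2 lower with a pair left out, and 0 higher and 7 lower under the treatment field. In tumoroids, 8 partner genes were lower, against 5 with upper-quartile factors, 4 on TPM and 5 to 8 with a library left out. The replicate block changed no call of an annexin there.

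Directions turned for annexins near 0. Between the organoid groups Anxa11 was 0.0062 on TPM. With a pair left out, Anxa1 ran from -0.15 to 0.35, Anxa2 from -0.074 to 0.15, Anxa10 from -0.27 to 0.22 and Anxa11 from -0.068 to 0.047, the turned values being those without pair 1. Under the treatment field all 10 turned by construction (Anxa1 -0.15, Anxa2 -0.055, Anxa3 -0.56, Anxa4 -0.43, Anxa5 -0.24, Anxa6 0.35, Anxa8 -0.48, Anxa10 -0.038, Anxa11 0.0049 and Anxa13 -0.44). In tumoroids Anxa11 was -0.030 by DESeq2 and with RLE factors and -0.16 to 0.14 with a library left out, turning without tumoroid 1 (-0.16) and without WT-cM-titled organoid 2 (-0.0011). For the other turns the cause was not tested. Of 200 alternative values for single annexins in tumoroids, 192 kept their direction and side of the threshold. The median of all genes there was 0.16, and 0.10 to 0.52 under the other scalings and tools. The lowest counts behind an annexin were 17 to 357 for Anxa10 in tumoroids, whose libraries differed by more than their depth, and 22 to 78 for Anxa6 in organoids.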
